A study of Rattus norvegicus with 31 samples.

Results

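Brown adipose tissue (BAT) of rats fed a high-fat diet (H-group) was compared with that of rats fed a low-fat diet (L-group), on every probe set that stood above the floor of the arrays. The rule used the height of the signal and not the diet. A non-control probe set was included if its log2 value was over 3.3 on at least 4 of the 9 BAT arrays, and 12361 of 31042 probe sets (39.8%) were. Of these, 11857 were over 3.3 on all 9 arrays. The 19 probe sets just inside the rule, over 3.3 on exactly 4 arrays, had a median value of 3.25, and the 87 just outside it, over 3.3 on exactly 3, had a median of 3.24. Of the included probe sets, 10057 were annotated to 1 gene symbol, giving 7837 genes, 281 to several and 2023 to none.

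The study took male Wistar rats, 3 weeks old. After a week on chow they were fed diets that differed in the ratio of carbohydrate to fat. Liver, white adipose tissue (WAT) and BAT were measured on 31 Affymetrix arrays. Carbohydrate gave 65% and fat 15% of the energy in the L-group, and 35% and 45% in the H-group. After a week of free feeding on these diets, the L-group ate ad libitum and the H-group was given equal energy for 9 weeks. Food was taken away 17 h before dissection, so all 9 BAT arrays describe fasted animals. The question is how BAT responds when fat takes the place of carbohydrate at equal energy. The added fat was soybean oil in place of corn starch, with lard equal, so the fatty acid profile of the diets differed too. Effects of the amount and of the kind of fat cannot be told apart here. BAT was measured in 5 L rats (L1 to L5) and 4 H rats (H12, H13, H15 and H16), 1 array per rat, and values of single arrays are given in that order. The small number of rats limits the precision of every value.

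Brown adipocytes oxidize fatty acids in densely packed mitochondria, where the uncoupling protein UCP1 lets the proton gradient run down as heat. In rodents the same cells also make fatty acids from glucose at a high rate. Genes of that route and of cholesterol synthesis are switched on by the SREBP transcription factors, which are held in the endoplasmic reticulum when sterols are plentiful, and genes of fatty acid synthesis also by the carbohydrate-sensing factor ChREBP.

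The arrays carried the markers of brown fat. Ucp1 lay between 14.44 and 14.89 on the 9 arrays, Cidea between 14.50 and 14.79 and Cox8b between 13.54 and 14.36, while the white-fat markers Hoxc8, Hoxc9 and Slc7a10 were at the floor on every array. Lep, also high in white fat, and Agt were above the floor on all 9, between 3.46 and 5.52 and between 5.20 and 7.81. The brown-fat genes Zic1 and Elovl3 were at the floor on every array too. Arrays correlated with each other at 0.973 to 0.993 and none were identical. H16 stood apart, with an array weight of 0.207 (limma), where the others had 0.687 to 2.34.

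Transcripts of skeletal muscle were on 2 of the H arrays. Of 38 muscle genes on the array, 10 were above the floor only on H13 or H15, and 19 were at the floor on all 9 arrays. Acta1, the muscle actin, was at 7.55 on H13, 9.13 on H15 and 2.29 on each other array, and Ckm, the muscle creatine kinase, was at 5.14, 6.37 and 2.33. The summed log2 level of the 38 genes was 129.4 to 134.0 on the L arrays, and 135.3, 162.8, 179.8 and 132.8 on the H arrays. The probe set annotated to the myosin Myh1 lay between 13.33 and 13.87 on all arrays. The part of muscle RNA in the differences below was not tested, and values without H13 and H15 or without H16 are given beside lists and genes that those arrays moved. In whole tissue, fewer cells of a type and less RNA per cell cannot be told apart.

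No probe set passed limma. Of 12361 probe sets, 0 (0.0%) had an adjusted p under 0.05, and the smallest adjusted p, 0.0701, was shared by 5, of which 4 had a symbol: Cyp51, Idh1, Cox8b and Gcat. At an unadjusted p under 0.05 there were 1425, of which 824 (6.67%) were higher in H and 601 (4.86%) lower. Rank products, the method named by the study, was run anew on these probe sets. It called 246, of which 84 (0.68%) were higher and 162 (1.31%) lower at a false discovery rate under 0.05. The paper reported more in both directions from its own run at the same rate, so these counts are not those of the study. All H arrays lay above all L arrays for 250 probe sets (2.02%) and below them for 222 (1.8%). Without H16 these shares were 9.7% and 2.53%, and without H13 and H15 4.19% and 4.81%. Rank products called 73 (0.591%) higher and 163 (1.32%) lower without H16, and 0 (0.0%) and 77 (0.623%) without H13 and H15. At an unadjusted p under 0.05 (limma), 13.6% were higher and 3.92% lower without H16, and 2.79% and 3.86% without H13 and H15, while 14 (0.113%) passed the adjusted threshold without H16 and 0 without H13 and H15. The median difference was 0.01 on the log2 scale, with 53.9% of the probe sets on the higher side and 46.1% on the lower. These shares were 63.1% and 36.9% without H16, and 46.9% and 53.1% without H13 and H15. Below, higher and lower name the side of the H mean, differences are H minus L in log2 units ± SE with 5 L and 4 H arrays, and no overlap means that all H arrays lay on 1 side of all L arrays.

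Cholesterol synthesis lay lower in the H-group across the route. Of 15 measured genes, all 15 had a lower mean, with a median difference of -0.56 against 0.01 over all probe sets. In 7 there was no overlap, where 1.8% of all probe sets were lower in that way. Rank products called 7 lower, against 1.31% of all probe sets. Without H16, 12 of 15 were lower (median -0.52) and 7 had no overlap against 2.53%. Without H13 and H15, 14 of 15 were lower (median -0.57) and 7 had no overlap against 4.81%, while rank products called 3 against 0.623%.

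Cyp51, the lanosterol demethylase, was at 6.10, 6.36, 5.99, 6.45 and 6.22 in the L-group and at 5.19, 5.02, 5.31 and 5.24 in the H-group. The groups did not overlap, and no array stood out in either. The means were 6.22 ± 0.19 (SD, n = 5) and 5.19 ± 0.13 (SD, n = 4), a difference of -1.03 ± 0.10 or 2.04-fold, with an adjusted p of 0.0701 (limma), which ran from 0.0196 to 0.291 over the settings tried and was under 0.05 in 8 of 20. Its probe set is of a kind that may also bind related transcripts.

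Fdft1, squalene synthase, the first enzyme committed to sterols, was at 9.25, 8.49, 8.11, 8.73 and 8.13 in the L-group and at 7.09, 7.30, 7.23 and 7.25 in the H-group. The H arrays lay close together below all L arrays, and L1 was the highest. The difference was -1.32 ± 0.23 (adjusted p = 0.117, limma), and the mean over its 2 probe sets gave -0.96. Dhcr7, which makes cholesterol from its last precursor, was at 8.46, 8.17, 8.06, 8.69 and 8.65 in the L-group and at 7.66, 7.61, 7.02 and 5.66 in the H-group. All H arrays were below the L arrays, H16 by far the most, and the difference of -1.42 ± 0.40 was -0.97 without that array.

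Nsdhl, a sterol dehydrogenase, was at 8.66 to 9.21 in L and 8.21 to 8.58 in H, and Pmvk, the phosphomevalonate kinase, at 6.83 to 7.19 in L and 6.31 to 6.61 in H. Neither overlapped, with differences of -0.66 ± 0.13 and -0.56 ± 0.09, and rank products called Nsdhl but not Pmvk. Fdps (-0.64) and Sc5d (-0.87) had no overlap either. The smallest differences of the list were those of Msmo1 (-0.04) and Lbr (-0.03).

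Insig1, which holds the SREBP complex in the endoplasmic reticulum and is itself a target of SREBP, was at 11.49, 12.48, 11.69, 12.13 and 11.95 in the L-group and at 11.27, 10.64, 10.61 and 10.43 in the H-group. There was no overlap, with H12 the nearest to the L arrays. The difference was -1.21 ± 0.23, 2.31-fold (adjusted p = 0.146, limma), and rank products called it. Npc2, which carries cholesterol out of the lysosome, was lower by less and without overlap (-0.33 ± 0.10). The regulators themselves overlapped between the groups. Srebf1 was at 10.65 to 11.16 in the L-group and at 10.64, 11.36, 11.26 and 11.22 in the H-group. H12 was just below all L arrays and the other H arrays were above them (0.22 ± 0.16, and 0.03 without H13 and H15). Srebf2 differed by -0.07 ± 0.10, and by 0.08 without H13 and H15. The 14 measured genes of the SREBP system had a median of -0.08, with 9 lower and 5 higher.

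**Figure D1:**
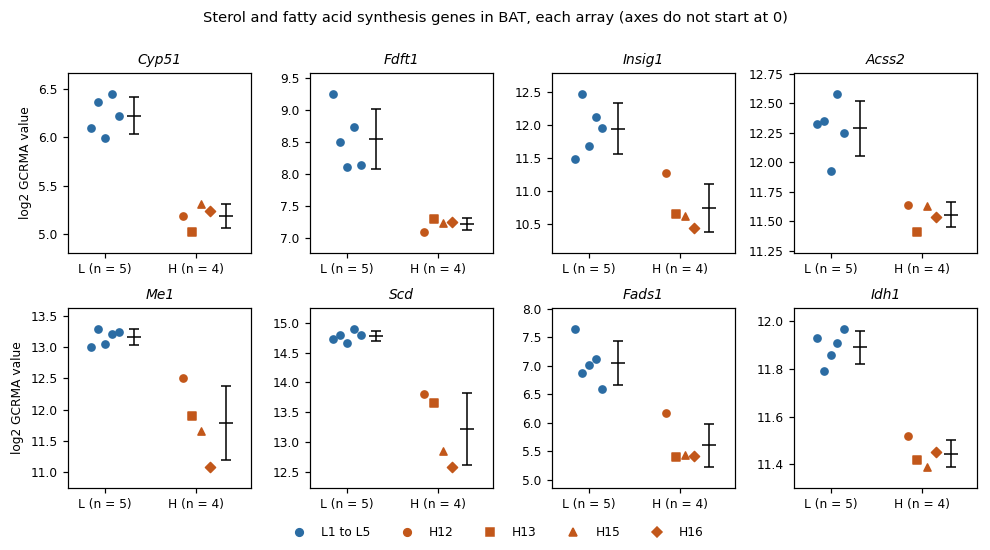
Log2 GCRMA values of 8 genes on each BAT array (y axis; axes do not start at 0), L rats in blue (n = 5) and H rats in orange (n = 4, 1 marker shape per rat), with the mean and SD beside the points. All H arrays are below all L arrays in each panel, and H16 is the lowest array for Insig1, Me1 and Scd but not for Cyp51 or Idh1.

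Fatty acid synthesis was lower in the H-group in 14 of 15 measured genes, with a median of -0.29. There was no overlap in 5, where 1.8% of all probe sets were lower in that way. Rank products called 6 lower, against 1.31% of all probe sets. The median was -0.28 without H16 and -0.50 without H13 and H15. Rank products called 5 lower without H16, against 1.32% of all probe sets, and 2 without H13 and H15, against 0.623%. Me1, the malic enzyme that supplies NADPH, was at 13, 13.30, 13.06, 13.22 and 13.24 in the L-group and at 12.50, 11.90, 11.65 and 11.08 in the H-group. The L arrays lay close together and the H arrays spread widely below them, from H12 down to H16. The difference was -1.38 ± 0.25, 2.61-fold (adjusted p = 0.12, limma), and -1.15 without H16.

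Genes that supply acetyl-CoA to the cytosol were lower as well. Acss2, which activates acetate, was at 12.32, 12.35, 11.93, 12.58 and 12.25 in the L-group and at 11.64, 11.41, 11.63 and 11.54 in the H-group. The groups did not overlap and no H array stood apart, with a difference of -0.73 ± 0.12 (adjusted p = 0.117, limma). Acly, ATP citrate lyase, was at 13.20, 13.29, 12.77, 12.92 and 13.31 in the L-group and at 12.77, 12.19, 12.26 and 12.25 in the H-group (-0.73 ± 0.16). H12 was level with L3 and the other H arrays were below all L arrays. Slc25a1, the citrate carrier of the mitochondrion, also had H12 inside the L range and the other H arrays below it (-1.0 ± 0.24). The dicarboxylate carrier Slc25a10 was at 7.78 to 8.59 in L and 6.26 to 7.01 in H, without overlap (-1.42 ± 0.22).

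Acaca, the acetyl-CoA carboxylase that makes malonyl-CoA, was at 13.09, 13.13, 13.06, 13.10 and 13.11 in the L-group and at 12.90, 12.60, 12.36 and 12.04 in the H-group. The L arrays were almost equal, and every H array was lower, by an amount that differed from rat to rat (-0.62 ± 0.15). The mean over its 2 probe sets gave -0.95. Fasn, the fatty acid synthase, was at 15.07 to 15.30 in L and 14.20 to 15.13 in H with H12 inside the L range. Its difference of -0.45 ± 0.17 was -0.27 without H16, and the mean over its 2 probe sets gave -0.61. These values are near the top of the scale, which ends at 15.7 on these arrays. Pnpla3, a lipid droplet protein that follows lipogenesis in rodents, had the lowest value of the list at -1.55 ± 0.39, without overlap (8.49 to 9.92 in L and 6.97 to 8.38 in H). Mlxipl, which encodes ChREBP, was the 1 gene of the list on the higher side (0.08).

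Of 7 measured genes for desaturation and elongation, 6 were lower (median -0.56, and -0.45 without H16 and -0.59 without H13 and H15). Scd, the stearoyl-CoA desaturase, was at 14.72, 14.80, 14.66, 14.90 and 14.80 in the L-group and at 13.81, 13.66, 12.85 and 12.59 in the H-group. All H arrays were lower, H12 and H13 by less than H15 and H16. The difference was -1.55 ± 0.25, 2.92-fold (adjusted p = 0.117, limma), and rank products called it. Fads1, the delta-5 desaturase of polyunsaturated fatty acids, was at 7.65, 6.87, 7.01, 7.12 and 6.60 in the L-group and at 6.17, 5.40, 5.44 and 5.41 in the H-group. There was no overlap, and H12 was the nearest to the L arrays (-1.44 ± 0.24). Elovl6, the elongase of palmitate, differed by -0.97 ± 0.30 with H12 inside the L range, and Scd2 by -0.56 ± 0.25 with overlap.

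The cytosolic and the mitochondrial isocitrate dehydrogenases, both sources of NADPH, lay on opposite sides. Idh1, the cytosolic form, was at 11.93, 11.79, 11.86, 11.91 and 11.97 in the L-group and at 11.52, 11.42, 11.39 and 11.45 in the H-group. The arrays of each group lay close together and did not overlap, so that a difference of -0.45 ± 0.05 gave an adjusted p of 0.0701 (limma; 0.0279 to 0.292 over the settings tried). Idh2, the mitochondrial form, was at 12.21, 11.80, 12.14, 11.97 and 11.99 in the L-group and at 12.29, 12.55, 12.43 and 12.32 in the H-group, higher without overlap (0.38 ± 0.09). Taldo1 of the pentose phosphate route was at 12.43 to 12.98 in L and 11.56 to 12.44 in H with H12 inside the L range (-0.66 ± 0.18). The 14 measured genes for NADPH supply had a median of -0.07, which was 0.03 without H16.

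Promoters were read for the lists that lay lowest, because SREBP is known to act together with the factor NF-Y, which binds CCAAT. RefSeq (build GRCr8) gave the 250 bases before the start for 13 of the 15 cholesterol genes, 12 of 15 for fatty acid synthesis and 6 of 7 for desaturation and elongation. CCAAT, or ATTGG on the other strand, was in 10 of 13 (76.9%), 8 of 12 (66.7%) and 4 of 6 (66.7%), and in 34.3% of all 27457 promoters. The sterol response element TCACNCCAC, on either strand, was in 0 of each list and in 0.976% of all. Its shorter form CACNCCAC, which lies within it, was in 2 of each list and 4.84% of all, and the E-box CACGTG in 1 of each and 5.79% of all. The motifs were chosen with the results of these lists known, and a match is a description of the letters and not of binding.

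The 5 promoters below belong to genes that lay lower in H and are shown because each carries the CCAAT letters, in capitals, on either strand. They read 5′ to 3′ on the strand of the gene, from Insig1 at chr4:8057770-8058019 (minus strand), Nsdhl at chrX:155817110-155817359 (plus), Fads1 at chr1:216252442-216252691 (plus), Slc25a1 at chr11:96559804-96560053 (plus) and Acss2 at chr3:164464453-164464702 (plus). Nsdhl has 5 copies and the others 1 each, and Insig1, Fads1 and Slc25a1 also hold the shorter sterol element. No CCAAT was found in the windows of Cyp51 and Dhcr7.
Insig1: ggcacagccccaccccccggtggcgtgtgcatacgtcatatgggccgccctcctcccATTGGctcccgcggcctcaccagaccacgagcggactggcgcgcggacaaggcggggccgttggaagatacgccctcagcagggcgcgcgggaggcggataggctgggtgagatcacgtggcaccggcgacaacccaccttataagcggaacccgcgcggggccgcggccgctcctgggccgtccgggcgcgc
Nsdhl: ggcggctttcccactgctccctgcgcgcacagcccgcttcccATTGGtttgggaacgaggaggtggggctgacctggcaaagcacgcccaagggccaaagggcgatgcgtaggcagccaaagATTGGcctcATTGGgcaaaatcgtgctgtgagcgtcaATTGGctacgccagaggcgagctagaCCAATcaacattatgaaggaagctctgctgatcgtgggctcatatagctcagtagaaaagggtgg
Fads1: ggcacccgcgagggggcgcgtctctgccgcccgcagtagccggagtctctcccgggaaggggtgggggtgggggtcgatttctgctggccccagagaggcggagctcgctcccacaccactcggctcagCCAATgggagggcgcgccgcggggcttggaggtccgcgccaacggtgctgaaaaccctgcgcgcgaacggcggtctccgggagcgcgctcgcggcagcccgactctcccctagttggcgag
Slc25a1: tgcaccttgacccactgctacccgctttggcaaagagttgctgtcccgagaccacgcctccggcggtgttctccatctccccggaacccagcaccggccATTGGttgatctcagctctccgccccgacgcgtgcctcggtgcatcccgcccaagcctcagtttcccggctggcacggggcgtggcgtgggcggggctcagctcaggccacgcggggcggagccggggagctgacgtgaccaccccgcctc
Acss2: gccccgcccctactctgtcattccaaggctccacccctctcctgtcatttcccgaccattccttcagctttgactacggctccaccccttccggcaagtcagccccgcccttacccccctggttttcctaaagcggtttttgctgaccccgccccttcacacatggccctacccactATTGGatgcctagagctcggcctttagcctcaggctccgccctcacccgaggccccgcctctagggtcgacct

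Of 23 measured genes for pyruvate and the citrate cycle 14 were higher (median 0.06, and -0.03 without H13 and H15). Without overlap 3 were lower and 1 (Sucla2, 0.15) higher, against 1.8% and 2.02% of all probe sets. Pdha1, a subunit of pyruvate dehydrogenase, was at 14.24, 14.25, 14.19, 14.19 and 14.20 in the L-group and at 14.0, 13.90, 13.95 and 13.67 in the H-group. The groups did not overlap (-0.33 ± 0.07, adjusted p = 0.16, limma). Mpc1, a part of the pyruvate carrier, differed by -0.32 ± 0.08 and Pc, pyruvate carboxylase, by -0.73 ± 0.17, both without overlap. Other parts of the carrier and of pyruvate dehydrogenase overlapped, with differences of 0.13 for Mpc2, 0.15 for Dld, -0.22 for Pdhb and -0.06 for Pdhx. Gpi of glycolysis (-0.34 ± 0.09) and the glycogen synthase Gys1 (-0.49 ± 0.14) had no overlap either. Of 17 genes for glucose uptake and glycolysis 11 were higher (median 0.02). Pdk4, the kinase that shuts pyruvate dehydrogenase in fasting, was at 13.18, 13.40, 13.19, 13.04 and 13.07 in the L-group and at 13.38, 13.24, 13.37 and 12.43 in the H-group. H16 was below all other arrays, and the difference of -0.07 was 0.15 without it and -0.28 without H13 and H15.

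**Figure D2:**
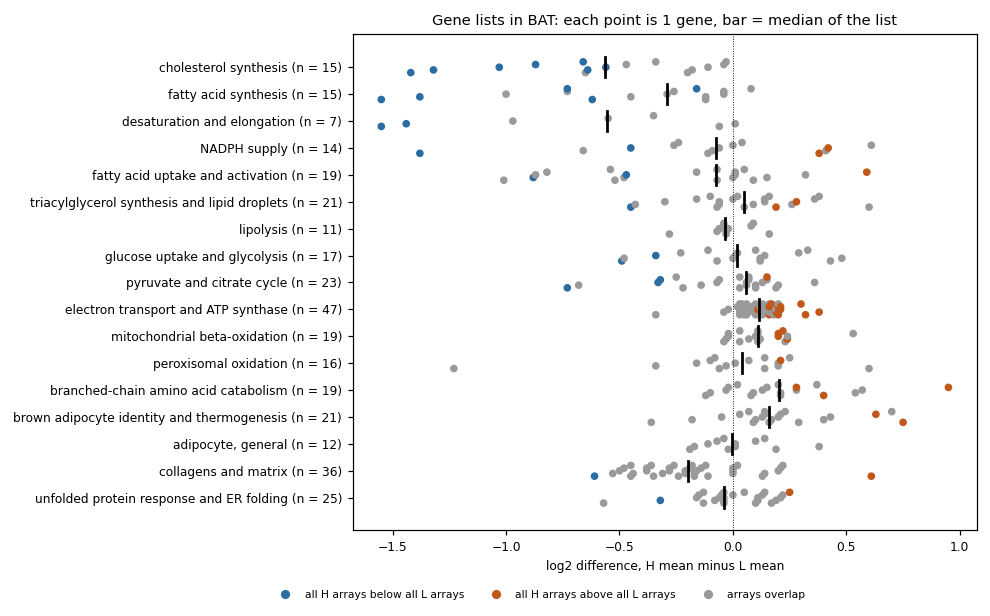
Log2 difference, H mean minus L mean (x axis), of the measured genes of each list, 1 point per gene, with the list median as a bar. Blue and orange mark genes whose H arrays lay all below or all above the L arrays, and the lists for cholesterol synthesis (median -0.56), fatty acid synthesis (-0.29) and desaturation (-0.56) lie to the left of 0 while electron transport (0.12) forms a narrow group to the right.

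Mitochondrial electron transport lay on the other side, by small steps. Of 47 measured genes for electron transport and ATP synthase 44 were higher in H (93.6%, against 53.9% of all probe sets), and 13 had no overlap, where 2.02% of all probe sets were higher in that way. The median difference was 0.12 and rank products called 0. At an unadjusted p under 0.05 (limma) 17 were higher, against 6.67% of all probe sets. With each array centred on its median, 44 were higher and 6 had no overlap, and after a second quantile normalization 41 and 8. In these settings 290 and 307 of 12361 probe sets were higher without overlap. Without H13 and H15, the arrays with muscle transcripts, 42 were higher with a median of 0.07, and 13 had no overlap against 4.19% of all probe sets.

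Ndufa5, a subunit of complex I, was at 10.49, 10.51, 10.56, 10.37 and 10.64 in the L-group and at 10.84, 10.99, 10.89 and 10.83 in the H-group. Every H array was above every L array, and the difference was 0.38 ± 0.06 (adjusted p = 0.117, limma). Ndufv2, also of complex I, was at 12.88 to 13.11 in L and 13.17 to 13.42 in H (0.32 ± 0.07). Cox5b of complex IV was at 13.46 to 13.56 in L and 13.63 to 13.77 in H (0.21 ± 0.04), and Atp5po of the ATP synthase at 13.09 to 13.22 in L and 13.30 to 13.44 in H (0.20 ± 0.05). None of these overlapped between the groups. The lowest value of the list was that of Atp5g3, another ATP synthase subunit (-0.34), with overlap.

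Promoters of this list were searched for the palindromic site of NRF1, an activator of respiratory genes, and for that of the estrogen-related receptors. The NRF1 site, on either strand, was in 5 of 41 (12.2%) and in 4.17% of all promoters, and TCAAGGTCA in 1 of 41 (2.44%) and 0.368% of all. Ndufa5 at chr4:53971236-53971485 and Atp5po at chr11:44657484-44657733, both on the minus strand of GRCr8, are shown as the genes above that hold the NRF1 letters, in capitals.
Ndufa5: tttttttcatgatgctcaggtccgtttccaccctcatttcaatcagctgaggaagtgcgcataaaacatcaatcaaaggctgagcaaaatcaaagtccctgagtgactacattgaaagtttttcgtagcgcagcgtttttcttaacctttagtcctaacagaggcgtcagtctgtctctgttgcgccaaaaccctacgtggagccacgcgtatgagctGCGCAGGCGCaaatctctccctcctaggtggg
Atp5po: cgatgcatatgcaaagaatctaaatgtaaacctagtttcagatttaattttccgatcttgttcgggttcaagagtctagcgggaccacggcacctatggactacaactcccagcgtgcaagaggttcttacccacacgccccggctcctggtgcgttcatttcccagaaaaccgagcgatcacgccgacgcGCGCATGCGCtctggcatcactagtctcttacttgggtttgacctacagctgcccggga

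Cox8b, the heart, muscle and brown-fat form of a complex IV subunit, was at 13.76, 13.59, 13.59, 13.54 and 13.80 in the L-group and at 14.15, 14.35, 14.31 and 14.36 in the H-group. The groups did not overlap and the H arrays were all over 14. The difference was 0.64 ± 0.07, 1.55-fold, with an adjusted p of 0.0701 (limma) that ran from 0.0279 to 0.336 over the settings tried, and it was 0.60 without H13 and H15. Ppargc1b, a coactivator of mitochondrial genes, was at 8.89, 8.70, 9.03, 9.07 and 9.23 in the L-group and at 9.74, 9.74, 9.64 and 9.82 in the H-group. The H arrays lay close together above all L arrays (0.75 ± 0.10, adjusted p = 0.117, limma), rank products called it, and the difference was 0.80 without H13 and H15.

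The defining genes of thermogenesis overlapped between the groups. Ucp1 was at 14.45, 14.71, 14.68, 14.44 and 14.75 in the L-group and at 14.75, 14.74, 14.86 and 14.89 in the H-group. The groups met at L5 and H12, and the difference was 0.20 ± 0.08, 1.15-fold (adjusted p = 0.405, limma), at a level near the top of the scale, which ends at 15.7 on these arrays. Cidea, a lipid droplet protein of brown fat, differed by 0.14 ± 0.05 with H12 inside the L range, and by 0.08 without H13 and H15. Ppargc1a, the cold-induced relative of Ppargc1b, was at 6.72 to 9.32 in L and 7.25 to 8.45 in H (0.09 ± 0.54), and Dio2, the deiodinase that makes active thyroid hormone, at 6.35 to 8.69 in L and 6.71 to 8.10 in H (-0.18 ± 0.50). Both spread widely among rats of 1 diet, and without H16 the differences were -0.03 and -0.02, while without H13 and H15 they were 0.23 and -0.27.

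Prdm16, which specifies brown adipocytes, differed by 0.03 ± 0.20, Pparg by 0.14 ± 0.18, and Cpt1b, which lets fatty acids into mitochondria, by 0.07 ± 0.04, all with overlap. Without H13 and H15 these differences were 0.11, 0.26 and 0.02. The beta-3 adrenergic receptor Adrb3 was at 10.89 to 11.53 in L and 10.68 to 11.22 in H (-0.28 ± 0.15). Ppara, near the floor at 3.03 to 3.80 in L and 3.70 to 5.06 in H, differed by 0.70 ± 0.31, and by 0.25 without H13 and H15. Of 21 measured genes of brown identity and thermogenesis 18 were higher (median 0.16). Cox8b and Ppargc1b were the 2 without overlap, where 2.02% of all probe sets were higher in that way.

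**Figure D3:**
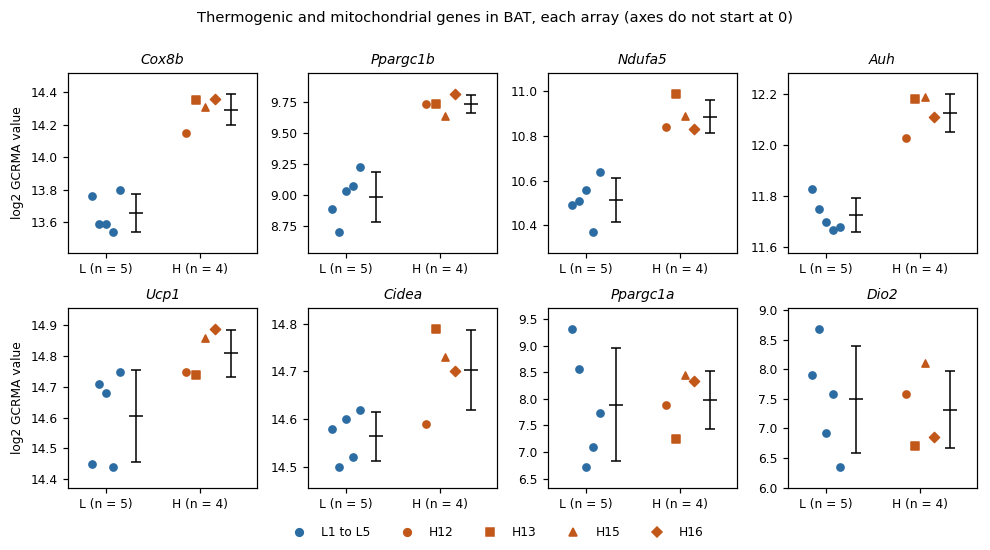
Log2 GCRMA values of 8 thermogenic and mitochondrial genes on each BAT array (y axis; axes do not start at 0), L rats in blue (n = 5) and H rats in orange (n = 4, 1 marker shape per rat), with the mean and SD beside the points. Cox8b, Ppargc1b, Ndufa5 and Auh separate the groups, Ucp1 and Cidea do not, and Ppargc1a and Dio2 vary by more than 1 unit within a group.

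Of 19 genes for mitochondrial beta-oxidation 15 were higher (median 0.11, and 0.08 without H13 and H15). No overlap was found in 4, where 2.02% of all probe sets were higher in that way. Acadvl, the very long-chain acyl-CoA dehydrogenase, was at 12.28, 12.27, 12.29, 12.08 and 12.30 in the L-group and at 12.45, 12.52, 12.47 and 12.41 in the H-group. Every H array was above every L array (0.22 ± 0.06), and L4 was the lowest. Etfa and Etfb, which pass on its electrons, differed by 0.20 ± 0.05 and 0.24 ± 0.06, and Echs1, an enoyl-CoA hydratase, by 0.20 ± 0.06, which was 0.12 without H13 and H15. After centring on the array median 1 gene of the list had no overlap, where 290 of 12361 probe sets were higher in that way. For peroxisomal oxidation 9 of 16 were higher (median 0.04, and -0.05 without H13 and H15). Phyh, which breaks down branched fatty acids, was higher without overlap (0.21 ± 0.06, and 0.10 without those arrays), and Pex11a, which divides peroxisomes, with overlap (0.60 ± 0.24). The lowest value of the list was that of Ehhadh (-1.23), with overlap. The lowest of the list was -0.64 without H16 and -2.03 without H13 and H15.

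Genes for the breakdown of branched-chain amino acids were higher in 15 of 19 (median 0.20), and the list was highest on the 2 arrays with muscle transcripts. Its mean level, as the log2 value less the mean of each gene, was 0.25 on H13 and 0.31 on H15, and 0.05 on H12 and -0.12 on H16, within the L range of -0.25 to 0.05. Without H13 and H15, 9 of 19 were higher and the median was -0.03. Auh, of leucine breakdown, was at 11.83, 11.75, 11.70, 11.67 and 11.68 in the L-group and at 12.03, 12.18, 12.19 and 12.11 in the H-group. All H arrays were above the L arrays (0.40 ± 0.05, adjusted p = 0.0946, limma), and the difference was 0.35 without H13 and H15. Bcat2, the mitochondrial transaminase that opens the route, was at 6.16 to 7.0 in L and 7.10 to 8.13 in H (0.95 ± 0.24, and 0.64 without H13 and H15). Bckdha of the branched-chain dehydrogenase had no overlap (0.28 ± 0.08) and was 0.15 without those arrays.

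**Figure D4:**
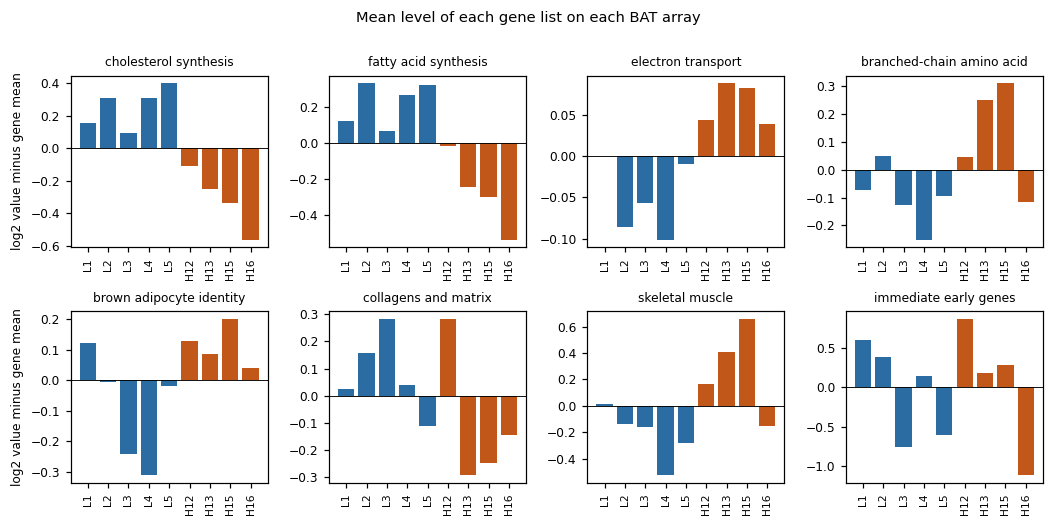
Mean level of 8 gene lists on each BAT array (y axis, log2 value of each gene less its mean over the 9 arrays; y axes differ), L rats in blue and H rats in orange. Cholesterol and fatty acid synthesis are below 0 on all 4 H arrays and lowest on H16, electron transport is above 0 on all 4, and the skeletal muscle list is highest on H13 and H15.

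Uptake and storage of fatty acids gave no common side. Of 19 genes for uptake and activation 12 were lower (median -0.07, and -0.18 without H13 and H15). Rank products called 4 lower, against 1.31% of all probe sets. Without H16 it called 3, against 1.32%, and without H13 and H15 it called 2, against 0.623%. The fatty acid transporter Slc27a1 differed by -0.81 ± 0.23 with H12 inside the L range, while the related Slc27a2 was higher without overlap (0.59 ± 0.16, and 0.34 without H13 and H15). Acsf2, an acyl-CoA synthetase, was at 11.57 to 11.78 in L and 10.98 to 11.48 in H (-0.47 ± 0.10). Of the lipid droplet coats, Plin2 was lower (12.24 to 12.51 in L and 11.50 to 12.19 in H, -0.45 ± 0.14) and Plin4 higher (11.84 to 12.07 in L and 12.13 to 12.39 in H, 0.28 ± 0.07), both without overlap. Angptl4, an inhibitor of lipoprotein lipase, was lower with overlap (-0.54 ± 0.22, and -0.31 without H16). The 11 measured lipolysis genes had a median of -0.03, which was -0.14 without H13 and H15 and 0.07 without H16. All 11 overlapped between the groups, while 2.02% of all probe sets were higher and 1.8% lower without overlap.

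Hormones and signalling genes varied one by one. Lep, which encodes leptin, was at 4.98, 4.90, 4.55, 5.52 and 4.63 in the L-group and at 4.05, 4.37, 3.46 and 4.56 in the H-group. H16 lay just inside the L range and the other H arrays below it (-0.81 ± 0.27). Adipoq, which encodes adiponectin, differed by -0.19 ± 0.14, and by -0.03 without H16. Gnas, whose G protein carries the signal of beta-adrenergic receptors, differed by 0.09 with overlap on its probe set with the highest mean (adjusted p = 0.548, limma). Another of its 3 probe sets was higher without overlap (0.97 ± 0.27) and was called by rank products. The mean over all 3 gave 0.66. In the insulin and IGF list (23 genes, median 0.02, and -0.11 without H13 and H15 and 0.12 without H16), Igfbp3 (-0.60 ± 0.14) and Trib3, an inhibitor of Akt (-0.88 ± 0.27), were lower with overlap.

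Matrix genes varied from rat to rat. Of 36 collagen and matrix genes 28 were lower (median -0.20, and -0.05 without H13 and H15), and the mean level of the list was 0.28 on H12, equal to the highest L array, and -0.29, -0.25 and -0.15 on H13, H15 and H16. Only Pxdn (-0.61) and Timp4 had no overlap, 1 lower and 1 higher, where 1.8% and 2.02% of all probe sets were so. Timp4, a protease inhibitor, was at 8.22, 8.04, 8.30, 8.27 and 8.29 in the L-group and at 8.95, 8.54, 8.82 and 9.04 in the H-group, higher on all H arrays (0.61 ± 0.11). Vim, a marker of fibroblasts, differed by -0.50 ± 0.15 with H12 inside the L range, and all 10 measured fibroblast genes were lower (median -0.12), but 6 without H13 and H15.

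Vessel genes differed in both directions. Myh11, the smooth muscle myosin, was at 9.01, 8.60, 8.70, 8.32 and 8.55 in the L-group and at 7.86, 7.61, 7.79 and 7.58 in the H-group. The H arrays lay close together below all L arrays (-0.93 ± 0.13, adjusted p = 0.117, limma), and rank products called it. It was the 1 gene without overlap of 10 for smooth muscle and pericytes, where 1.8% of all probe sets were lower in that way. Of the 10, 6 were lower and 4 higher (median -0.15). Tagln (-0.60), Mylk (0.14) and Lmod1 (0.76) of that list overlapped. In endothelium the VEGF receptor Kdr was higher without overlap (8.46 to 9.17 in L and 9.20 to 9.71 in H, 0.71 ± 0.18) and the junction protein Cldn5 lower with overlap (-0.57 ± 0.21), while Pecam1, found on endothelium in general, lay between 8.90 and 9.19 on the 9 arrays.

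Several of the largest differences lay outside these pathways. Gcat, which breaks threonine down to glycine, was at 8.44, 8.44, 8.02, 7.81 and 8.43 in the L-group and at 6.68, 6.96, 6.51 and 6.16 in the H-group. The groups did not overlap (-1.65 ± 0.20, 3.13-fold), and the adjusted p of 0.0701 (limma) ran from 0.00372 to 0.402 over the settings tried. Gng13, a G protein gamma subunit, was at 7.48, 7.50, 6.11, 6.13 and 5.87 in the L-group and at 4.51, 3.88, 4.61 and 4.54 in the H-group, without overlap (-2.23 ± 0.40). Sult1c3, a sulfotransferase, was at 6.01, 6.52, 5.74, 7.77 and 5.83 in the L-group and at 3.68, 3.68, 3.68 and 2.29 in the H-group. It held 1 value on 3 H arrays and the lowest value of the scale on H16, so its difference of -3.04 ± 0.48 is set by the low end of the scale. The cyclin Ccnd2 was at 9.52, 8.81, 9.36, 9.42 and 9.48 in the L-group and at 9.02, 7.58, 6.06 and 6.14 in the H-group. H12 was within the L range and the other H arrays far below it (-2.12 ± 0.58).

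On the higher side, Cyp2e1, a cytochrome that oxidizes ethanol and acetone, was at 5.83, 6.10, 6.75, 6.23 and 5.86 in the L-group and at 6.89, 7.79, 8.13 and 8.27 in the H-group. H12 was just above L3 and the other H arrays were well above all L arrays (1.62 ± 0.31, 3.07-fold, adjusted p = 0.136, limma), and rank products called it. Car2, a carbonic anhydrase, was at 5.73 to 6.10 in L and 6.45 to 7.11 in H (0.82 ± 0.14), on the dimmer of its 2 probe sets, and the mean over both gave 0.75. Mb, the oxygen store myoglobin of muscle, which brown fat also makes, was at 5.23, 3.37, 3.86, 3.17 and 4.58 in the L-group and at 6.07, 6.50, 6.65 and 5.39 in the H-group. H12 and H16, on which Acta1 was at the floor, were also above all L arrays, and the difference of 2.11 ± 0.46 was 1.69 without H13 and H15.

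Early-response genes differed widely between rats of 1 diet. The immediate early list (18 genes, median 0.11, and -0.09 without H13 and H15 and 0.42 without H16) had a mean level from -0.76 on L3 to 0.60 on L1, and from -1.10 on H16 to 0.87 on H12. Klf4 (1.10 ± 0.38) and Klf2 (0.92 ± 0.55, and 0.54 without H13 and H15) were above all L arrays on H12, H13 and H15 and within the L range on H16. Of the 27 genes for oxidative stress and detoxification (median -0.002, and 0.10 without H16), the glutathione transferase Mgst3 was higher with H16 inside the L range (0.61 ± 0.14). In that list Txnip was lower (-0.51) and Gpx4 higher (0.18), each without overlap. The folding helper Dnajc3 was higher (0.25 ± 0.05) and P4hb lower (-0.32), each without overlap, in a list of 25 with a median of -0.04.

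The same probe sets in the liver and WAT of these rats had other values. The tissues were normalized separately and by different methods, so the differences stand side by side with no test across them. For Cyp51 the difference was -1.03 in BAT, 0.26 in liver and -0.19 in WAT, and for Insig1 -1.21, -0.15 and -0.46, with overlap in liver and WAT for both. Scd had no overlap in any of the 3 tissues, at -1.55, -2.71 and -5.05. Acaca, Fasn, Pnpla3 and Elovl6 were lower in WAT without overlap (-1.28, -1.15, -1.30 and -0.76) and overlapped in liver. Fads1 was -1.44 in BAT and 0.74 with overlap in liver, and held 1 value in WAT. Srebf1 was 0.22 with overlap in BAT and 0.75 without overlap in liver.

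**Figure D5:**
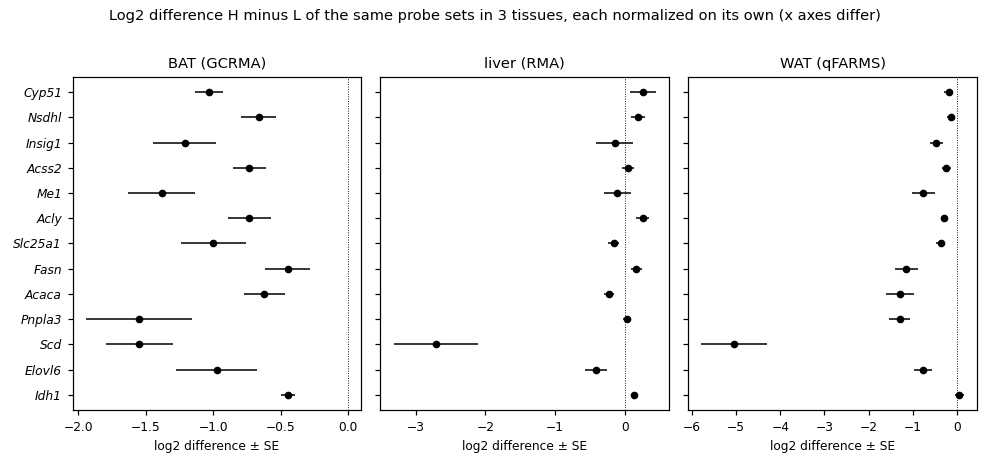
Log2 difference H minus L (x axes differ) with its SE for 13 genes in BAT, liver and WAT, with 5 L and 4 H arrays each and each tissue normalized on its own. All 13 lie below 0 in BAT, and Scd is the lowest in liver (-2.71) and WAT (-5.05).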

How the data were processed

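RNA of each rat was hybridized to an Affymetrix Rat Genome array. The authors deposited log2 values, made from the BAT arrays alone by GCRMA (a background correction by probe base content, quantile normalization and a summary per probe set), from liver by RMA and from WAT by qFARMS. Probe sets were named by the platform annotation. Genes, lists and motifs were chosen with earlier results of these data known. H minus L was fitted with limma 3.58.1 (R 4.3.3; lmFit, eBayes, 2-sided, Benjamini-Hochberg over 12361 probe sets, threshold 0.05). Rank products with 100 permutations, the study's method, was an alternative, since it assumes 1 spread for all probe sets. On simulated data limma recovered 88% of differences of 1 and 97% of 2 with 14 false calls, and rank products 94% and 99% with 88. The simulated noise was normal, independent and of equal spread on all arrays of a probe set. It had no muscle transcripts, low-weight array or floor, so these rates need not hold for the BAT arrays. A gene stands on its probe set with the highest mean, except that Gnas and Car2 were named for a dimmer probe set that rank products called. Named were up to 4 genes per list with the smallest p, up to 12 per direction with the largest differences called without overlap, and a fixed set of thermogenic, lipogenic and muscle genes, of which 90 were used in full. The markers, Fdps, Sc5d, Msmo1, Lbr, Mlxipl, Atp5g3, Pxdn, Ehhadh, P4hb and Txnip were named beside them. So were Sucla2, Mpc2, Dld, Pdhb, Pdhx, Tagln, Mylk and Lmod1. Some of these genes were named after their values were seen. Alternatives were array weights, centring, quantile normalization, a trended robust fit, other filters, a muscle covariate, the mean over probe sets, each rat left out, and, chosen after seeing the data, H13 and H15 left out.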

Additional observations from a re-analysis of the deposited data

Results flagged for a closer look

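In 14 of 180 groups of arrays tested (7.78%), 1 array lay far from the others of its group, where chance gives about 1 in 20. On H12 these were Nsdhl (8.58), Acly (12.77) and Fads1 (6.17), each the highest of the H arrays. On H13 they were Pparg (10.16) and Gng13 (3.88), each the lowest. On H16 they were Mpc1 (12.70), Pdk4 (12.43), Sult1c3 (2.29), Klf2 (8.02) and Mgst3 (9.30), each the lowest. In the L-group they were Ccnd2 on L2 (8.81), Acadvl on L4 (12.08) and Col4a1 on L5 (10.72), each the lowest, and Srebf2 on L3 (6.75), the highest.

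Idh1 lay on opposite sides in BAT (-0.45) and liver (0.13) with no overlap of the L and H arrays in either, and the difference between the tissues was not tested. Of the skeletal muscle genes, 10 were above the floor only on H13 or H15.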

How the results depend on the processing

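No paired analysis was possible because the L rats (1 to 5) and the H rats (12, 13, 15 and 16) share no replicate number. Against 0 calls in limma (0 higher, 0 lower), the calls were 246 (84 higher, 162 lower) by rank products, 31 (15, 16) with array weights, 19 (1, 18) after centring, 10 (2, 8) after quantile normalization, 3 (1, 2) in the trended robust fit, 5 (2, 3) with values under 3.3 set to 3.3 and 4 (1, 3) with the mean over probe sets. Leaving out 1 rat gave 0 to 14 calls (0 to 11 higher, 0 to 3 lower), with 14 without H16, 3 without L3 and 1 without H12. Rank products called 0 higher and 77 lower without H13 and H15.

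With 1 rat left out, the list medians were -0.59 to -0.50 for cholesterol synthesis, -0.37 to -0.27 for fatty acid synthesis, -0.70 to -0.43 for desaturation, 0.10 to 0.13 for electron transport, 0.09 to 0.13 for beta-oxidation, 0.13 to 0.19 for brown identity, 0.08 to 0.28 for branched-chain amino acids and -0.29 to -0.17 for matrix. The muscle score was the mean level of the 9 included muscle genes, among them Mb but not Acta1 or Ckm. It was -0.52 to 0.01 on the L arrays and 0.17, 0.41, 0.66 and -0.15 on the H arrays, so it also differed with the diet. With it as a covariate the medians were -0.65 for fatty acid synthesis, -0.89 for desaturation, 0.069 for electron transport and -0.074 for branched-chain amino acids. Without H13 and H15 they were -0.50, -0.59, 0.068 and -0.031. The causes were not tested.

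Of 90 genes 84 kept their sign in every setting they entered, and 3 (Mb, Sult1c3 and Ppara) did not enter the setting of values over 3.3 on all 9 arrays. Srebf2 turned to 0.066 with the muscle covariate and 0.076 without H13 and H15, and ran from -0.157 to 0.033 with 1 rat left out, above 0 without H15. Pdk4 turned to 0.081 with array weights and to 0.15 without H16, and ran from -0.165 to 0.15. Ppargc1a turned to -0.375 with the covariate and ran from -0.197 to 0.452, below 0 without H15, H16, L3 or L4. Prdm16 turned to -0.008 with array weights and -0.138 with the covariate and ran from -0.079 to 0.15, below 0 without the same rats. Dio2 turned to 0.033 with array weights and ran from -0.463 to 0.123, above 0 without H13 or L2. Cpt1b turned to -0.003 with the covariate.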
